A study of Mus musculus with 7 samples.

Results

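The 35 genes described here are type I interferon-stimulated genes, chosen by symbol from a fixed list, and all 35 are among the 25571 rows of the deposited count table. All 35 also passed the low-count filter, which left 15822 genes tested. They were measured by bulk RNA sequencing in CD11b+ tumour-associated macrophages, sorted by flow cytometry from T387 glioblastoma xenografts grown orthotopically in NSG hosts. This strain lacks mature T cells, B cells and NK cells, so these lymphocytes were missing from the host of every sample. The 4 Pracinostat samples came from mice given oral Pracinostat, an inhibitor of zinc-dependent histone deacetylases, at a labelled dose of 30 mg/kg on 4 days of each week, over 3 weeks that began on day 7 after implantation. The 3 DMSO samples came from mice given the same DMSO-containing solvent without the drug on that schedule. The labels also state 3 mg/kg for the drug as prepared, and they give neither the age of the mice nor whether a sample pools animals. They call the samples biological replicates, so a p-value measures the spread between these samples.

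Type I interferons signal through the receptor chains IFNAR1 and IFNAR2 and the kinases JAK1 and TYK2. These activate a complex that holds STAT2 and IRF9 and binds the interferon-stimulated response element (ISRE) in promoters. The induced genes encode proteins that bind or cut foreign RNA, block viral entry and budding, or tag proteins with the ubiquitin-like ISG15. Some of them are also switched on directly by IRF3 after nucleic acid sensing. Microglia and macrophages keep many of them at a low tonic level and raise them after infection or injury.

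The ISRE core was looked for in the promoters because it is what many of these genes are known to share. The pattern searched was GAAA, any 2 bases and GAAA again, on both strands, with overlapping matches counted, in the RefSeq promoter windows of the mouse build GRCm38.p6 (250 bases before to 50 bases after the start of transcription). Of the 35 genes, 27 had a window, and 15 of these 27 (55.6%) held at least 1 match. Among all 27025 genes with a window, 1079 (3.99%) did. The excerpts show the matches in capitals, 5′ to 3′ on the gene's strand, with 25 bases on either side where the window before the start allows it. Ifit1, Ifit3 and Isg15 are shown because their levels set 1 library apart, Stat2 and Rsad2 because they had a single match, Oas1a because it had matches but did not stand out in that library, and Cxcl10 because this interferon-induced chemokine gene had the highest fold change among the genes that are described with values in every library.
Ifit1: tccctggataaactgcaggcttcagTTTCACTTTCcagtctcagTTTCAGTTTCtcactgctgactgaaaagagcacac
Ifit3: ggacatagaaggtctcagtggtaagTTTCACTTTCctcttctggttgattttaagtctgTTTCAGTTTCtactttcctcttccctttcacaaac
Isg15: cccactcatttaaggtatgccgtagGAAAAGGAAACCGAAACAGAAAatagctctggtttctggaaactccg
Stat2: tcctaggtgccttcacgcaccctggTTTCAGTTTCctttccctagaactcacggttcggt
Rsad2: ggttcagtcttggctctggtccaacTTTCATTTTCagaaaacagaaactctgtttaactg
Oas1a: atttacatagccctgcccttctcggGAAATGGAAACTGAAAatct
Cxcl10: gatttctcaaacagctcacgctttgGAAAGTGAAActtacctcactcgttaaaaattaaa

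The Ifit1 excerpt lies at chr19:34640760-34640838 on the plus strand, the Ifit3 excerpt at chr19:34583348-34583441 (plus) and the Isg15 excerpt at chr4:156200850-156200921 (minus). The Stat2 excerpt lies at chr10:128270251-128270310 (plus), the Rsad2 excerpt at chr12:26456538-26456597 (minus), the Oas1a excerpt at chr5:120907526-120907570 (minus) and the Cxcl10 excerpt at chr5:92349068-92349127 (minus). In Isg15 the run of capitals is 3 matches that overlap, starting at positions -78, -72 and -66 from the start of transcription, and in Oas1a it is 2 overlapping matches at -20 and -14. The Ifit3b promoter holds the same 94 bases as the Ifit3 excerpt, so 1 line stands for both of these neighbouring genes. A match is a description of the letters and does not show binding, and a window without one says only that these letters are not in it.

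**Figure D1:**
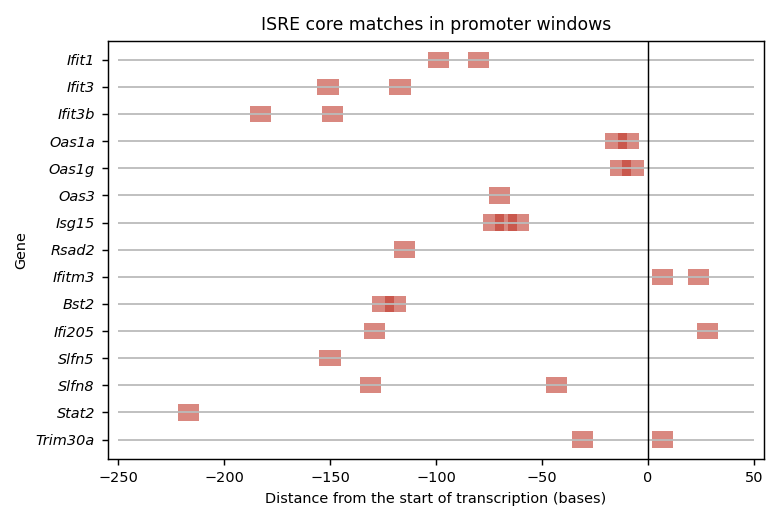
Position of each ISRE core match (red boxes, darker where matches overlap) in the promoter windows of the 15 genes with a match, plotted as distance in bases from the start of transcription (vertical line). Slfn8 and Trim30a have 2 windows each, drawn on 1 line. The 2 Slfn8 boxes are the same bases seen from its 2 overlapping windows. Most matches lie before the start, and both Ifitm3 matches lie after it.

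The 7 libraries held 10142753 to 16950597 counts, and the smallest count of any of the 35 genes in any library was 82 (Isg20, DMSO replicate 2). Pracinostat replicate 3 stood apart from the rest on several measures, so fold changes of genes highest in it are also given without it. Itgam, which encodes the sorted CD11b antigen, was at 1448, 1530.2, 2579.5 and 1692 CPM (counts scaled to the TMM-adjusted library size) in the Pracinostat libraries, against 1688, 1410.1 and 1318 CPM in the DMSO libraries. Itgam was present at high level in all 7 libraries and highest in Pracinostat replicate 3. A CD11b gate also takes neutrophils and monocytes. The neutrophil markers summed to 366 CPM for Pracinostat replicate 3 and to 534 to 619 CPM for replicates 1, 2 and 4, against 396 to 622 CPM with DMSO. Csf3r, which is not restricted to neutrophils, made up 360.2 CPM of the sum in Pracinostat replicate 3. There 9 of the 13 markers in the table were at 0, S100a9, Ly6g, Ltf and Ngp among them. In DMSO replicates 1 to 3, 2, 4 and 6 of the 13 were at 0, and 1 in each other Pracinostat library. Ltf and Ngp were at 0 in DMSO replicate 3 too, and Ly6g in Pracinostat replicate 4 and every DMSO library. Of the 10 lymphoid markers, 7 are in the table and Cd4 alone passed the filter.

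None of the 35 genes passed the test between Pracinostat and DMSO macrophages. The comparison asks whether weeks of deacetylase inhibition went with another level of the interferon programme in these cells. Of the 35 genes, 0 passed the edgeR quasi-likelihood test at an adjusted p under 0.05, and 0 had an unadjusted p under 0.05. The background over all 15822 genes was 0% at the adjusted and 4.18% at the unadjusted threshold, and DESeq2 also called 0 of the 35, against 0.171% of all genes. The smallest adjusted p among them in edgeR was 0.9998. Log2 fold changes, Pracinostat minus DMSO, were positive in 23 genes and negative in 12, where 52.3% of all genes were positive. Cmpk2, Ifi27l2a and Trim25, all near 0, turned negative under each of the 3 other scalings. The median of the 35 genes was 0.03, against 0.02 over all genes tested. In bulk RNA, fewer cells of a type and less RNA per cell cannot be told apart.

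A large shift lay outside the intervals of most of these genes. The fold changes ran from -0.42 for Ifit3b to 0.58 for Isg20, with standard errors of 0.16 to 0.48. For 29 of the 35 genes the 95% interval of the log2 fold change lay within -1 and 1, so a 2-fold change in either direction was outside it. The other 6 of the 35, among them Ifit2, Isg20 and Ifi205, had intervals that reached past a 2-fold change on one side or both. An interval within -1 and 1 was also found for 6551 of all 15822 genes. Among the 7506 genes whose log2 CPM averaged 4 or more, it was found for 6151, a share like that of the 35. Intervals of this width were thus usual at such a level and not particular to these genes. The narrowest interval was that of Slfn5, a Schlafen family member, from -0.59 to 0.10. Groups did not overlap in 2 of the 35 genes, Xaf1 and Ifi35, against 6.1% of all genes tested. Both lay above in Pracinostat, as 3.51% of all genes did, and 0 of the 35 lay below, as 2.59% did.

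**Figure D2:**
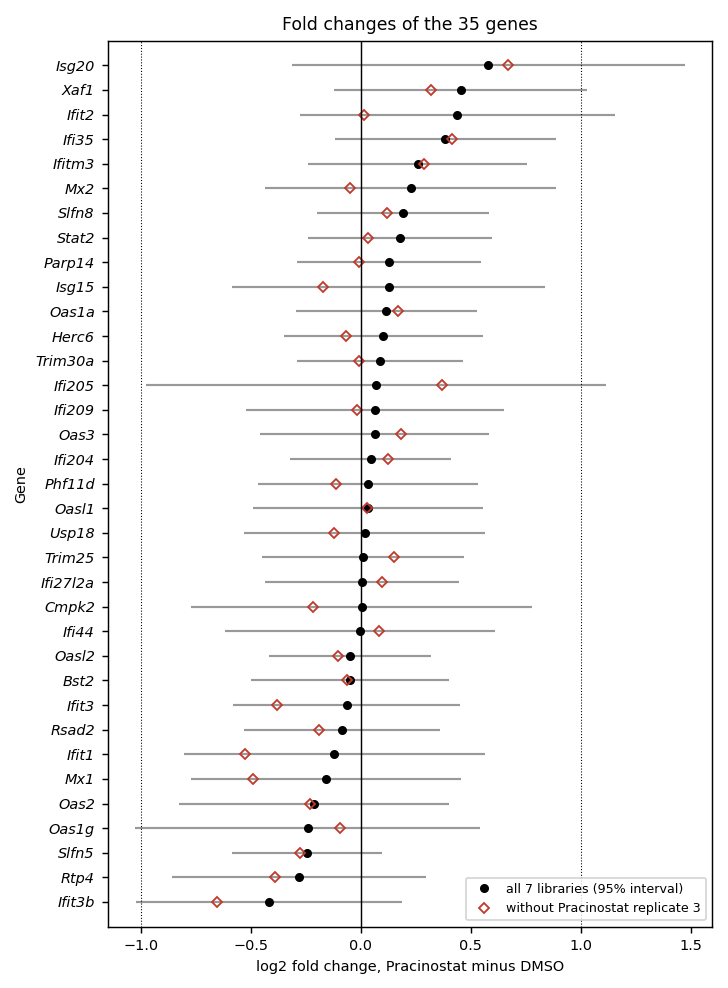
Log2 fold change, Pracinostat minus DMSO, of each of the 35 genes with all 7 libraries (black points, 95% interval as grey lines) and without Pracinostat replicate 3 (open red diamonds); dotted lines mark a 2-fold change. All values lie between -0.42 and 0.58 with all libraries, and those of Ifit1, Ifit3, Ifit2, Mx1 and Isg15 shift to the left without that library.

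Single libraries differed more than the groups did. A library's score averages, over the 35 genes, the distance of its log2 CPM from that gene's average in the 7 libraries. It was 0.0306, -0.126, 0.182 and -0.0409 in Pracinostat replicates 1 to 4, against 0.0425, 0.0663 and -0.155 in DMSO replicates 1 to 3. Pracinostat replicate 3 had the highest score and DMSO replicate 3 the lowest, and the groups overlapped. The group means were 0.0115 ± 0.131 (SD, n = 4) with Pracinostat and -0.0153 ± 0.121 (SD, n = 3) with DMSO. Without Pracinostat replicate 3 the Pracinostat mean was -0.0454 on the same scale. No test was run on the score, because the genes were chosen with earlier results known.

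Which library was highest depended on the gene. Pracinostat replicate 3 was the highest of the 7 libraries for 14 of the 35 genes (40.0%). This compares with 16.9% of all genes tested and 18.8% of those with a mean log2 CPM over 3. It was the lowest for 4, namely Trim25, Ifi44, Ifi204 and Ifi205, and for 16.1% of all genes. In that library 8 of the 35 genes were more than 0.5 above their own mean on the log2 scale, and 2 were more than 0.5 below it. As far above were 22.0% of all genes tested, but 10.7% of those with a mean log2 CPM over 3. All 35 genes averaged over 3 (lowest 3.56), so the second share is the one at their level. DMSO replicate 3 was the lowest library for 8 of the 35 genes, against 14.8% of all genes, and the highest for 1, against 15.0% of all genes. Within the Pracinostat group the median SD of log2 CPM was 0.326 over the 34 genes that averaged at least 4 in log2 CPM, against 0.197 within the DMSO group. Over all 7506 genes at that level it was 0.268 with Pracinostat and 0.266 with DMSO. Without Pracinostat replicate 3 it was 0.263 for the 34 genes and 0.226 for all genes.

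**Figure D3:**
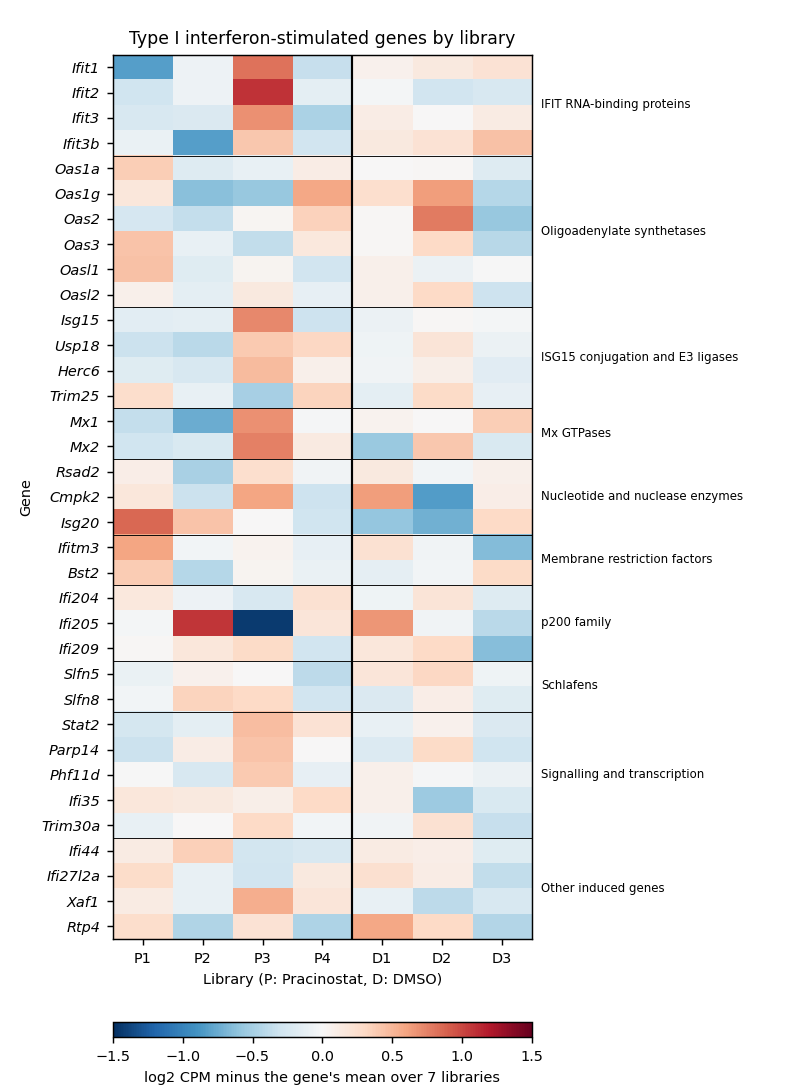
Distance of log2 CPM from each gene's 7-library average (colour, red above and blue below) for the 35 genes in rows, grouped by function, and the libraries in columns, Pracinostat (P1 to P4) left of DMSO (D1 to D3). The P3 column is red for the IFIT, Mx and Isg15 rows and blue for Ifi205, Oas1g and Trim25.

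The IFIT proteins, which bind viral RNA ends and block translation, had the highest score of any functional group in a single library. Their score was 0.746 for Pracinostat replicate 3 and -0.364 to -0.298 for replicates 1, 2 and 4, against 0.0182 to 0.137 with DMSO. The high library and the other Pracinostat libraries thus lay on opposite sides of all DMSO libraries. Ifit1 was at 23.6, 39.6, 73.7 and 32.9 CPM with Pracinostat, against 43.7, 46.1 and 48.7 CPM with DMSO. The third Pracinostat library was above every DMSO library and the others were below, and the fold change was -0.12 ± 0.32 (SE, log2). Ifit2, which is known to bind tubulin and to promote cell death in addition, was at 169, 196, 438 and 187 CPM with Pracinostat, against 204, 169 and 175 CPM with DMSO (0.44 ± 0.32). Here the other Pracinostat libraries were within the DMSO range or at its edge, and only the third was far outside it. Ifit3, a partner that stabilises IFIT1 in human cells, was at 102, 103, 193 and 86.5 CPM with Pracinostat, against 129, 120.3 and 131 CPM with DMSO (-0.06 ± 0.24). Ifit3b, its near-identical neighbour, was at 28.2, 17.1, 40.1 and 24.9 CPM with Pracinostat, against 33.7, 35.4 and 41.4 CPM with DMSO (-0.42 ± 0.28). Reads of Ifit3 and Ifit3b can be assigned to either gene, so their split is uncertain. In Ifit3b the third library lay inside the DMSO range.

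The ISG15 system covers the modifier itself, its protease and ligases. Isg15 was at 14.4, 14.5, 26.7 and 13 CPM with Pracinostat, against 15.1, 16.3 and 15.7 CPM with DMSO (0.13 ± 0.33). The pattern was that of Ifit1, with the third library above and the other 3 below all DMSO libraries. Usp18, which removes ISG15 and dampens receptor signalling, was at 29, 27.5, 47.6 and 45 CPM with Pracinostat, against 34.7, 41.7 and 34.1 CPM with DMSO (0.02 ± 0.26). Replicates 3 and 4 were above the DMSO range and replicates 1 and 2 below it. Herc6, the ISG15 ligase of mice, was at 54, 51.6, 85.4 and 64.6 CPM with Pracinostat, against 59, 65 and 54.6 CPM with DMSO (0.10 ± 0.21). Trim25, a ubiquitin ligase that activates RIG-I, went the other way in the third library, with 112, 86.1, 66 and 117 CPM with Pracinostat, against 84.1, 114 and 85.3 CPM with DMSO (0.01 ± 0.21).

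Mx proteins are dynamin-like GTPases that trap viral components. Mx1 was at 53.8, 41.3, 111 and 68.6 CPM with Pracinostat, against 71.5, 69.4 and 89.2 CPM with DMSO (-0.16 ± 0.28). Mx2 was at 27.1, 28.4, 56.5 and 36.5 CPM with Pracinostat, against 22.6, 44.2 and 28.4 CPM with DMSO (0.23 ± 0.31). Both were highest in Pracinostat replicate 3, where their score was 0.724, and without that library Mx2 was at -0.05 ± 0.30.

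The oligoadenylate synthetase family, known for making the second messenger that activates RNase L, did not share this pattern. Replicate 3 of Pracinostat scored -0.142, and replicates 1, 2 and 4 scored -0.27 to 0.206, against -0.319 to 0.323 with DMSO. Oas1a was at 88.5, 59.8, 63.3 and 73.7 CPM with Pracinostat, against 68.6, 69.1 and 59.8 CPM with DMSO (0.12 ± 0.19). Oas2 was at 56.5, 52.5, 68.2 and 85.6 CPM with Pracinostat, against 67.9, 116 and 45.1 CPM with DMSO (-0.21 ± 0.28). The DMSO libraries spread more widely than the Pracinostat libraries for Oas2. Fold changes of the 6 genes of this family ran from -0.24 for Oas1g to 0.12 for Oas1a. Oas3 (0.06 ± 0.24) and the OAS-like genes Oasl1 (0.03 ± 0.25) and Oasl2 (-0.05 ± 0.17) were close to 0. Oas1a and Oas1g are close paralogs, and their counts may be shared.

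Among the enzymes acting on nucleotides and RNA, Rsad2 (viperin), which makes a chain-terminating nucleotide, was at 60.7, 40.5, 67.5 and 54.4 CPM with Pracinostat, against 62.8, 55 and 59.8 CPM with DMSO (-0.09 ± 0.21). Its neighbour Cmpk2, a mitochondrial nucleotide kinase, was at 22.8, 16.2, 30.7 and 16.3 CPM with Pracinostat, against 31.4, 11.3 and 21.8 CPM with DMSO (0.00 ± 0.36). Neither separated the groups. Isg20, a 3′ to 5′ exonuclease, had the largest fold change of the 35 genes (0.58 ± 0.42), with 19.9, 14.7, 10.9 and 8.8 CPM with Pracinostat, against 7.23, 6.56 and 13.5 CPM with DMSO. It was highest in Pracinostat replicates 1 and 2, and the groups overlapped.

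Of the membrane proteins, Ifitm3, which blocks fusion of viruses with endosomes, was at 126, 81, 86.4 and 76.6 CPM with Pracinostat, against 97.9, 80.8 and 53.3 CPM with DMSO (0.26 ± 0.23). Bst2 (tetherin), which holds budding virus at the cell surface, was at 92.8, 53.2, 73.4 and 66.6 CPM with Pracinostat, against 64.9, 69.6 and 87.4 CPM with DMSO (-0.05 ± 0.21). In both, Pracinostat replicate 1 was the highest library.

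The p200 family, whose members bind DNA or regulate transcription, was lowest as a group in Pracinostat replicate 3. The score there was -0.464, with 0.0395 to 0.389 for replicates 1, 2 and 4, against -0.411 to 0.252 with DMSO. Ifi205 was at 14.8, 31.9, 5.49 and 17.1 CPM with Pracinostat, against 23.8, 14.5 and 11.3 CPM with DMSO (0.07 ± 0.48). Ifi204, a sensor of DNA, was at 162, 137, 122 and 169 CPM with Pracinostat, against 138, 165 and 126 CPM with DMSO (0.04 ± 0.17). The lowest value of both genes was that of Pracinostat replicate 3, while Ifi209 (0.07 ± 0.27) was lowest in DMSO replicate 3. In Pracinostat replicate 3 Ifi209 was 0.283 above its own mean (log2), Ifi204 was at -0.245 and Ifi205 at -1.43. The low group score of that library thus came mostly from Ifi205. Members of this family resemble each other in sequence, so single values are uncertain. The markers of monocyte-derived macrophages scored -1.44 in that library, with -0.297 to 0.624 for Pracinostat replicates 1, 2 and 4, against -0.0826 to 0.739 with DMSO. Their sum did not follow the score, with 10573 to 20313 CPM with Pracinostat, where replicate 4 was lowest and replicate 3 had 12906 CPM, against 14498 to 17506 CPM with DMSO. Fn1, a marker in that list, was highest in replicate 3 and made up 9829 CPM of its sum. Whether the cell types in the sort set the p200 values was not tested. The Schlafens Slfn5 (-0.24 ± 0.16) and Slfn8 (0.19 ± 0.18) had opposite signs.

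**Figure D4:**
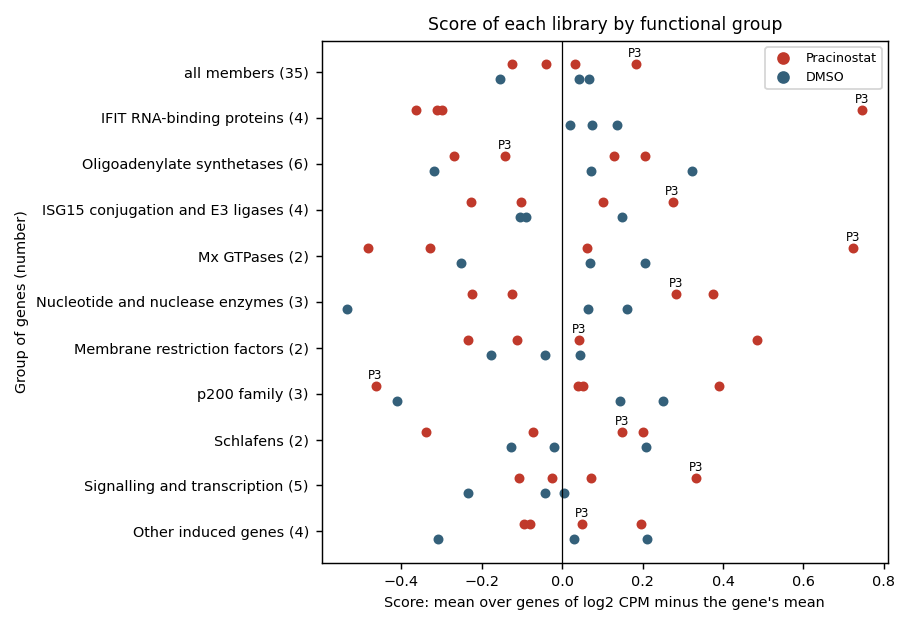
Score of each library (average distance of log2 CPM from the average of each gene) for all 35 genes and for each functional group, Pracinostat in red above DMSO in blue, with Pracinostat replicate 3 marked P3. P3 is far right for the IFIT and Mx groups, at 0.746 and 0.724, and the lowest library for the p200 family.

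The 5 genes of signalling and transcription had fold changes of 0.03 to 0.38, and 0 passed the test. All 5 were positive with every library in, but without Pracinostat replicate 3 only Ifi35 (0.41 ± 0.25) and Stat2 (0.03 ± 0.18) were, while Trim30a and Parp14 were at -0.01 and Phf11d at -0.11. Stat2, a subunit of the interferon-activated complex, was at 93.1, 101, 154 and 131 CPM with Pracinostat, against 104, 118 and 96.2 CPM with DMSO (0.18 ± 0.19). Replicates 3 and 4 were above the DMSO range, and replicate 1 was below it. Ifi35, a partner of the transcription regulator NMI, was at 37.3, 36.6, 35.2 and 40.7 CPM with Pracinostat, against 35, 22.7 and 28.4 CPM with DMSO (0.38 ± 0.23). All Pracinostat libraries were above all DMSO libraries, by a margin of under 1 CPM between the nearest pair. Parp14, an ADP-ribosyltransferase, was at 257, 347, 432 and 322 CPM with Pracinostat, against 278, 393 and 261 CPM with DMSO (0.13 ± 0.20). Trim30a, an inhibitor of NF-kappaB signalling (0.09 ± 0.18), and Phf11d (0.03 ± 0.23) were also highest in Pracinostat replicate 3. Xaf1, a pro-apoptotic binder of XIAP, had the smallest p of the 35 genes (unadjusted p = 0.114), with 25.2, 21.3, 33.7 and 26.1 CPM with Pracinostat, against 21.3, 17.4 and 19.5 CPM with DMSO (0.45 ± 0.27). Its groups did not overlap, though Pracinostat replicate 2 and DMSO replicate 1 were alike to 3 digits. Without Pracinostat replicate 3, where it was highest, Xaf1 was at 0.32 ± 0.29. Ifi44 (-0.00 ± 0.29), Ifi27l2a (0.01 ± 0.21) and Rtp4, a receptor chaperone (-0.28 ± 0.27), overlapped between the groups.

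Leaving out Pracinostat replicate 3 turned the median fold change of the 35 genes to -0.02 and gave 15 positive and 20 negative values. The fold change was -0.66 ± 0.27 for Ifit3b, -0.38 ± 0.16 for Ifit3, -0.49 ± 0.22 for Mx1, -0.53 ± 0.25 for Ifit1 and -0.17 ± 0.33 for Isg15. In these 5 of the 35 genes, the remaining 3 Pracinostat libraries were all below the 3 DMSO libraries, and the same held for 4.44% of all 15166 genes tested in that fit. For Xaf1 and Ifi35 they were all above, against 5.85% of all genes, and 10.3% of all genes did not overlap in either direction. The unadjusted edgeR p was 0.0311 for Ifit3b, 0.0355 for Ifit3 and 0.0435 for Mx1, and 4.1% of all genes were under 0.05. None of the 35 passed after adjustment, the smallest adjusted p being 0.9996. This fit is set out because that library stood apart, and it was the highest Pracinostat library for each of these 5 genes. Leaving it out was bound to lower their fold changes, while the share of all genes was not selected in that way. These values are therefore no independent evidence of a decrease with Pracinostat. Ifit2 was at 0.01 ± 0.16 in that fit, Rsad2 at -0.19 ± 0.21, Usp18 at -0.12 ± 0.27 and Herc6 at -0.07 ± 0.20.

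**Figure D5:**
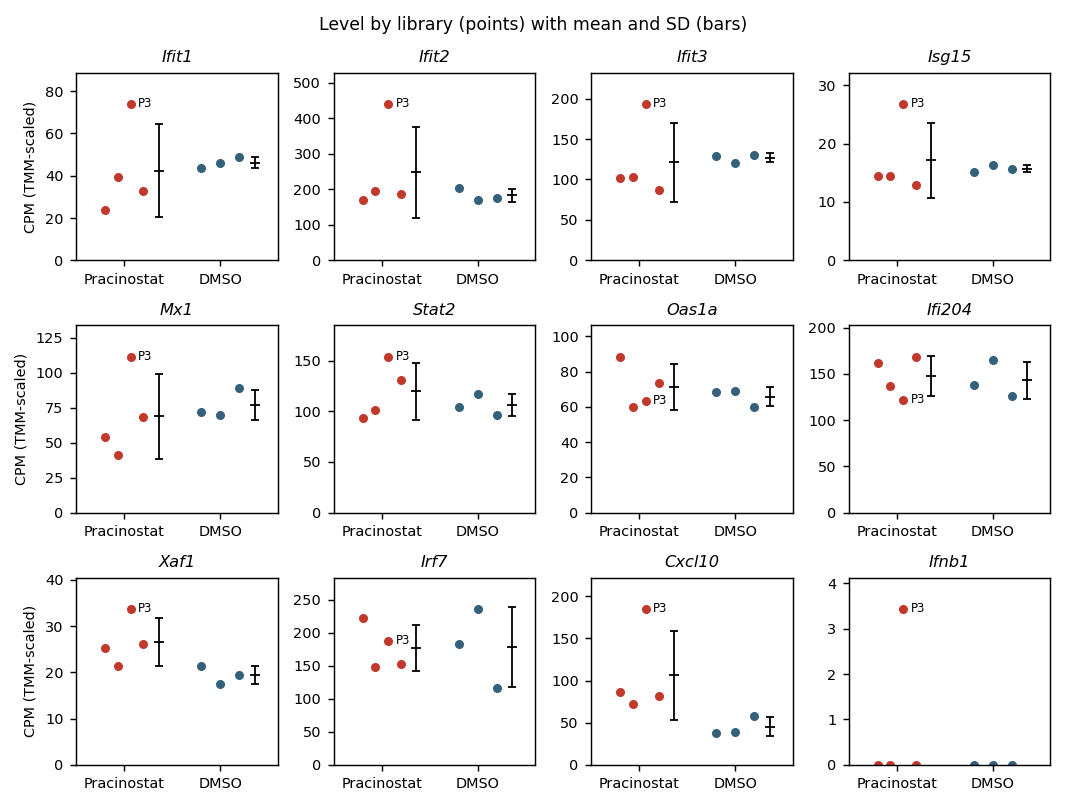
CPM of each library (points), with the mean and SD of each group (bars, not drawn for Ifnb1), for 9 of the 35 genes and for Irf7, Cxcl10 and Ifnb1, Pracinostat in red left of DMSO in blue. Pracinostat replicate 3 (P3) is the highest point for Ifit1, Ifit2, Ifit3, Isg15, Mx1, Stat2, Xaf1 and Cxcl10, and the only library with Ifnb1 counts.

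The interferon beta gene, which encodes the ligand, was counted in the same library alone. Ifnb1 had 52 counts in Pracinostat replicate 3 (95% exact Poisson interval 38.8 to 68.2, counting error only), which is 3.44 CPM. It had 0 counts in the other 3 Pracinostat libraries and in all 3 DMSO libraries, where 3 counts would have been 0.183 to 0.29 CPM. Ifnb1 did not pass the low-count filter and has no test. Genes with at least 50 counts in 1 library and 0 in the other 6 numbered 0 to 16 per library, and Pracinostat replicate 3 had 2 of them. Of the 18 interferon ligand genes listed, Ifnb1 alone is a row of the table, and the others were not analysed here.

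The receptor genes were not highest in that library. Ifnar1 was at 223, 207, 161 and 297 CPM with Pracinostat, against 233, 231 and 169.9 CPM with DMSO (0.07 ± 0.20). Ifnar2 was at 144, 117, 88.3 and 138 CPM with Pracinostat, against 159, 114 and 129.8 CPM with DMSO (-0.14 ± 0.19). Both chains were lowest among the Pracinostat libraries in replicate 3. Irf9, the DNA-binding subunit of the complex, was at 93, 84.6, 84.8 and 61 CPM with Pracinostat, against 76.3, 107 and 69.1 CPM with DMSO (-0.06 ± 0.21). Of the 16 receptor and JAK-STAT genes, 0 passed the test in either direction, 9 were positive and the median was 0.04. The members with the smallest p were Socs3, a feedback inhibitor of cytokine receptors (0.29 ± 0.16), and Stat3 (0.22 ± 0.18).

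Among 8 interferon regulatory factors 6 were positive, with a median of 0.07, and 0 passed the test in either direction. Irf7, the factor that amplifies interferon production, was at 223, 148, 187 and 152 CPM with Pracinostat, against 183, 236 and 116 CPM with DMSO (-0.01 ± 0.23). It did not single out the third library. Irf1 was at 193, 232, 188 and 162 CPM with Pracinostat, against 128, 136 and 127 CPM with DMSO (0.57 ± 0.16, edgeR adjusted p = 0.996). Its groups did not overlap. Irf3, the factor that sensors activate, was at 0.42 ± 0.26.

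Of 19 genes of nucleic acid sensing 15 were positive, with a median of 0.13, and 0 passed in either direction. Pracinostat replicate 3 was the highest library for 8 of the 19, against 16.9% of all genes tested. Cgas, the cytosolic DNA sensor, was at 30.3, 34.3, 69.8 and 41.7 CPM with Pracinostat, against 15.8, 33.9 and 35.9 CPM with DMSO (0.62 ± 0.34, or 0.31 ± 0.32 without that library). The RNA editor Adar was at 0.25 ± 0.16.

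A wider list of 59 other interferon-stimulated genes had 31 positive and 28 negative fold changes, a median of 0.01 and 0 that passed in either direction. Cxcl10, the chemokine ligand of CXCR3, was at 86, 72.7, 185 and 81.8 CPM with Pracinostat, against 37.9, 39.3 and 58 CPM with DMSO (1.24 ± 0.33, edgeR adjusted p = 0.996). Without the third Pracinostat library Cxcl10 was at 0.83 ± 0.22 (edgeR adjusted p = 0.684). Its call depended on the processing. It passed at an adjusted p under 0.05 in 1 alternative, with a fold change of 1.24, and not in the other 16. Unlike Ifit1 and Isg15, it was above all DMSO libraries in each Pracinostat library, not in the third alone. Gbp3, a guanylate-binding GTPase, was at -0.73 ± 0.33. Pracinostat replicate 3 was the highest library for 12 of the 59, DMSO replicate 2 for 15 and DMSO replicate 1 for 13. Without Pracinostat replicate 3, 25 of the 58 still tested were positive and the median was -0.03. The 13 interferon-gamma inducible genes listed, which are GTPases and the class II transactivator Ciita, had 6 positive values, a median of -0.08 and 0 that passed. Igtp was at 18.2, 18.8, 36.6 and 24.9 CPM with Pracinostat, against 14.4, 13.4 and 13.5 CPM with DMSO (0.84 ± 0.32), and Gbp5 was at 0.62 ± 0.26. Both were highest in the third Pracinostat library, and without it Igtp was at 0.59 ± 0.32 and Gbp5 at 0.50 ± 0.27.

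Genes with and without an ISRE core match had overlapping values in that library. The 15 genes with a match had a median of 0.25 above their own mean (log2) in Pracinostat replicate 3, against 0.21 for the 12 with a window but no match. That library was the highest for 6 of the 15 and for 4 of the 12, against 16.9% of all genes tested. The median fold change was 0.06 with a match and 0.05 without.

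Markers of other cell types also set Pracinostat replicate 3 apart. Microglia markers summed to 11798 CPM in it and to 7366 to 8371 CPM in replicates 1, 2 and 4 of Pracinostat, against 6715 to 8273 CPM with DMSO. Summed plasmacytoid dendritic cell markers, of a cell type known for making interferon, came to 235 CPM in it and to 256 to 317 CPM in Pracinostat replicates 1, 2 and 4, against 256 to 292 CPM with DMSO. This was the lowest value of the 7, and Tcf4, which other cells also express, made up 206 CPM of it. Ccr9 was at 0 in that library and in Pracinostat replicate 2, and Klk1 was at 0 in 5 of the 7 libraries. The collagen-rich libraries, Pracinostat replicate 1 and DMSO replicate 2, had fibroblast marker sums of 1115 and 1390.2 CPM, and the remaining 5 libraries lay between 169.5 and 296 CPM. Without both, the median fold change of the 35 genes was 0.09, and 0 were called. The part of the mix of sorted cells in the values of single libraries was not tested.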

How the data were processed

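The authors deposited expected counts per gene symbol, stored as whole numbers and not normalized, for 7 libraries of total RNA. The build GRCm39 and the tools RSEM, STAR, DESeq2, Trim Galore, MultiQC and FastQC are named per the submitters' processing notes, without versions or roles. For the annotation and strand setting nothing is stated, so overlapping, antisense and near-identical genes are uncertain. Libraries were made from 1 ng of RNA with a stranded kit and read as pairs of 150 bases over 2 lanes, per the labels' protocols.

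From these counts, Pracinostat and DMSO were compared with edgeR 4.0.16 (R 4.3.3), with TMM scaling, a low-count filter (filterByExpr, min.count 10), a quasi-likelihood fit with robust estimation, a two-sided test and Benjamini-Hochberg adjustment over all 15822 genes. Log2 fold changes are Pracinostat minus DMSO ± standard error. Levels are TMM-scaled CPM, and scores use log2 CPM with a prior count of 2. Alternatives were other scalings and filters, DESeq2 1.42.0, limma-voom (limma 3.58.1), a replicate block and leaving out libraries. The fit was tested on simulated data. Libraries of a group differed by more than sampling noise (chi-square 30.0 or more times its degrees of freedom). The genes and lists were chosen with earlier results of these data known. Outside the 35 genes, those named were Itgam, Irf7, Irf9, Ifnar1, Ifnar2, Ifnb1 and Cxcl10, and the 2 of each pathway list with the smallest p at a mean log2 CPM of at least 2. Marker genes, Ciita, Ch25h and Ccl5 were named after their values were seen. A further gene that this rule covers is not reported here. Promoters are RefSeq windows of another build, so they were matched by symbol only.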

Additional observations from a re-analysis of the deposited data

Results flagged for a closer look

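Dixon's test at 95% was run on 62 genes or scores within the Pracinostat group. In 5 of them a single library lay too far from its neighbour for the width of the group, and in all 5 it was replicate 3. Chance flags about 1 in 20 such groups, the values share libraries, and the DMSO group of 3 was not screened. Ifit2 was at 438 CPM in that library and 169 to 196 CPM in the other Pracinostat libraries, against 169 to 204 CPM with DMSO. Ifit3 was at 193 CPM there and 86.5 to 103 CPM in the others, against 120.3 to 131 CPM with DMSO. Isg15 was at 26.7 CPM there and 13 to 14.5 CPM in the others, against 15.1 to 16.3 CPM with DMSO. Cxcl10 was at 185 CPM there and 72.7 to 86 CPM in the others, against 37.9 to 58 CPM with DMSO. The IFIT score was 0.746 there and -0.364 to -0.298 in the others, against 0.0182 to 0.137 with DMSO.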

How the results depend on the processing

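The count of 0 called among the 35 genes stayed at 0 in all 18 alternatives. Their median fold change ran from -0.04 (without DMSO replicate 3) to 0.15 (without DMSO replicate 2), within the spread between libraries (0.166), with its sign turned without DMSO replicate 3 or Pracinostat replicate 3. Over all genes, the count of 0 became 63 with no low-count filter, 27 with DESeq2, 4 with the replicate block and 0 to 3 when 1 library was left out (3 without DMSO replicate 3). The block fit also left out Pracinostat replicate 4 and gave a median of 0.04 for the 35 genes. Correlations between same-numbered Pracinostat and DMSO samples were 0.0445, -0.0352 and 0.0728, against -0.074 to 0.0511 between differently numbered ones. All were small, and that of the replicates numbered 3 was the highest. Whether equal numbers mark pairs cannot be told from these values. Each of the 3 scalings other than TMM turned the sign of the same 3 genes (Cmpk2, Ifi27l2a and Trim25). The score of Pracinostat replicate 3 ran from 0.156 to 0.262 over its 11 alternatives, and every library's score moved by less than the within-group SD. The ISRE core followed by a C was in 40.7% of the 27 promoters and in 0.944% of all. The lowest count of any of the 35 genes in a library was 82.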

Other observations

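Ch25h, an interferon-induced enzyme that makes 25-hydroxycholesterol, also stood out in Pracinostat replicate 3 and was chosen after its values were seen. It was at 12.5, 19.2, 75.2 and 20.7 CPM with Pracinostat, against 18.6, 18.6 and 15.5 CPM with DMSO, with a log2 fold change of 0.87 ± 0.57 that did not pass the edgeR test (adjusted p = 0.9998). Without that library it was at -0.00 ± 0.33. Ccl5, another chemokine gene known to respond to IRF3, did not stand out there, with 19.4, 19.2, 14.6 and 25.6 CPM with Pracinostat, against 25.1, 28.8 and 10.5 CPM with DMSO.

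The same library held more cell cycle transcripts. A list of 20 such genes, also chosen after values were seen, summed to 1545, 1457, 3192 and 1195 CPM with Pracinostat, against 1427, 1735 and 2053 CPM with DMSO. These values are given as measured, and no relation to the interferon-stimulated genes was tested.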
